A study of Homo sapiens with 9 samples.

Results

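The proteasome genes were examined in RNA-seq of HEK293T cells expressing WT, G245S or R273H p53. Protein-coding genes were taken by symbol, PSMA to PSMG followed by a number, and 50 of the 78986 genes in the table matched. Of these, 48 encode proteasome subunits, activators, an inhibitor or assembly factors, and 2 (PSMC3IP and PSME3IP1) match the pattern but are not subunits. The 48 were kept apart as 15 genes of the 20S core, 17 genes of the 19S cap, 6 genes of the immunoproteasome and its activator (PSMB8, PSMB9, PSMB10, PSMB11, PSME1 and PSME2), 7 assembly chaperones, and 3 others (the activators PSME3 and PSME4 and the inhibitor PSMF1).

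HEK293T is a human embryonic kidney line that carries the SV40 large T antigen, a viral protein that binds p53. The labels name it HEK 293 and call it an epithelial cell. Each of the 3 lines was made with lentivirus and kept under puromycin, and each overexpressed 1 form of p53: WT, G245S (a change that alters the fold of the DNA-binding domain) or R273H (a change of a residue that touches DNA). All 3 lines therefore carried a p53 transgene and the resistance gene, beside the p53 of the parent line, and no library without a transgene was analysed here. RNA came from 3 biological replicates per line, 9 libraries in all, and each line is a single selected population.

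The 26S proteasome degrades ubiquitin-tagged proteins. Its 20S core is a barrel of alpha and beta rings in which PSMB5, PSMB6 and PSMB7 cut proteins, and the 19S cap binds ubiquitin, unfolds the substrate with its PSMC ATPases and feeds it into the barrel. Interferon replaces the cutting subunits with PSMB8, PSMB9 and PSMB10 and raises the cap PSME1/PSME2, which favours peptides for presentation by MHC class I. The subunit genes are often induced together, by NFE2L1 (NRF1) when proteasomes fail and by NFE2L2 (NRF2) in oxidative stress, and mutant p53 has been described in some cancer cells as raising them together with NRF2.

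Library totals ran from 7325514 to 9667306 counts in 8 libraries and came to 1486315 in WT replicate 3, which was left out of the fits for its depth, so each mutant was compared as 3 libraries against 2. MDM2, a direct p53 target, averaged 81.7 ± 3.75 CPM (counts scaled to library size with TMM factors) in WT (SD, n = 2), 46.0 ± 1.78 CPM in G245S (SD, n = 3) and 43.6 ± 2.15 CPM in R273H (SD, n = 3), and fell in both mutants (log2 fold changes −0.82 and −0.90, edgeR's Benjamini-Hochberg adjusted p = 0.000848 and 0.000228). Of the epithelial markers, KRT18 was expressed (58.6 to 68.6 CPM in the 8 libraries), while EPCAM (0.736 to 3.40 CPM) and CDH1 (0.680 to 1.41 CPM) were near the floor of 3 counts, which is 0.305 to 0.408 CPM there. CDH2, listed with the epithelial markers although its product N-cadherin is a usual mark of mesenchymal cells, was at 75.5 to 83.7 CPM. The mesenchymal marker VIM was at 461 to 580 CPM, and of the blood cell markers CD3E was at 0 in all 9 libraries and PTPRC at most at 0.953 CPM.

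The proteasome genes held a small and steady share of the transcriptome. The 38 genes of the 20S core, the 19S cap and the immunoproteasome took 0.878% of the counts in WT replicate 1, 0.839% in WT replicate 2 and 0.786% in WT replicate 3. The share was 0.814%, 0.873% and 0.844% in the G245S libraries and 0.856%, 0.891% and 0.900% in the R273H libraries. The groups overlapped: WT replicate 2 lay within the range of the G245S libraries and WT replicate 1 within that of the R273H libraries.

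**Figure D1:**
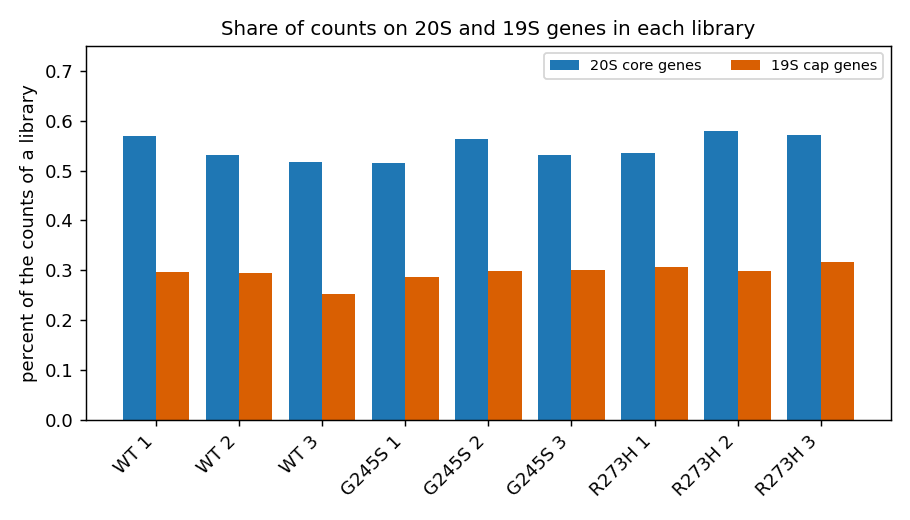
Percent of all counts of a library (y axis, from 0) that fell on 20S core genes (blue) and 19S cap genes (orange) in each of the 9 libraries (x axis). The 20S share ran from 0.516% to 0.578% and the 19S share from 0.253% (WT replicate 3) to 0.316%, with overlapping groups.

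Within the complex, levels per length were higher for the core than for the cap. Divided by the length of the canonical GENCODE v44 transcript, the mean level over the 8 libraries had a median of 230 CPM per kb over the 20S genes and 86.5 CPM per kb over the 19S genes. PSMB3, a beta subunit, was highest of the 20S genes at 1005 CPM per kb, and PSMD8, a lid subunit, was highest of the 19S genes at 194 CPM per kb. The lowest 19S gene was the ATPase PSMC1 at 20.1 CPM per kb. This order depends on the length used: with the gene lengths of the deposited table, which span all exons, PSMC3 (86.1 CPM per kb) and PSMD4 (84.3) lay above PSMD8 (68.2), and PSMC6 (9.99) lay below PSMC1 (14.4). By that length too the median of the 20S genes (87.1 CPM per kb) was above that of the 19S genes (29.7), and PSMB3 was the highest 20S gene. For PSMC1, 13 pseudogenes named after it, more than for any other member, held 948 counts over the 8 libraries. Reads that fit several genes were shared as fractions, so levels of members with expressed pseudogenes are uncertain. Which part of a transcript the reads cover is not given in the sources used here, and with reads from one end of the mRNA, division by length would overcorrect long transcripts.

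In the 8 fitted libraries, replicates of 1 line differed for these genes about as much as for others of like expression. The SD of log2 CPM within groups had a median of 0.094 over the 31 expressed 20S and 19S genes, against 0.150 over all genes tested and 0.097 over the 2724 genes in the same range of expression (67.5 to 831 CPM). PSMB8, at 2 to 13 counts in the 8 libraries, had the largest spread of all members (0.52), followed by PSMB9 (0.28) and PSMB10 (0.21).

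No proteasome gene passed the test in either mutant. Of the members, 45 passed the filter on low counts for G245S against WT, 46 for R273H against WT and 45 for R273H against G245S. At an adjusted p under 0.05 (edgeR, quasi-likelihood, Benjamini-Hochberg adjusted over all genes), 0 members were called in each of the 3 comparisons, where 0.126%, 0.137% and 0% of all genes tested were called. The smallest adjusted p of a member was 0.723, 0.888 and 0.994 with edgeR and Benjamini-Hochberg adjustment. DESeq2 called 0 members as well. Before adjustment, edgeR gave 2, 0 and 0 members a p under 0.05 (DESeq2 1, 0 and 0), where 6.66%, 6.11% and 4.75% of all genes had one.

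The intervals of the 20S and 19S genes left little room for a change. With 95% intervals of the log2 fold change, 13 of the 14 20S genes tested and 16 of 17 19S genes lay within 1.25-fold either way in G245S, and 12 of 14 and 14 of 17 in R273H. For comparison, 29.6% and 31.7% of all genes tested had an interval that narrow. All genes tested span a wider range of expression, and the share among genes of like expression was not computed. The 2724 genes at 67.5 to 831 CPM had a median SD within groups of 0.097, beside 0.094 for the 20S and 19S genes. The intervals of all 31 20S and 19S genes tested lay within 1.5-fold in both mutants, beside 65.6% and 67% of all genes. The highest upper limit of a 20S gene was 1.23-fold for PSMA6 in each mutant. That of a 19S gene was 1.23-fold for PSMD11 in G245S and 1.26-fold for PSMC5 in R273H. Downwards, the lowest limit of a 20S gene was that of PSMA7, 0.745-fold in G245S, where its interval did not hold 0, and 0.779-fold in R273H. For the 19S genes it was 0.789-fold for PSMC3 in G245S and 0.793-fold for PSMC6 in R273H. These limits concern 2 WT libraries and rest on their spread being like that of the mutants.

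**Figure D2:**
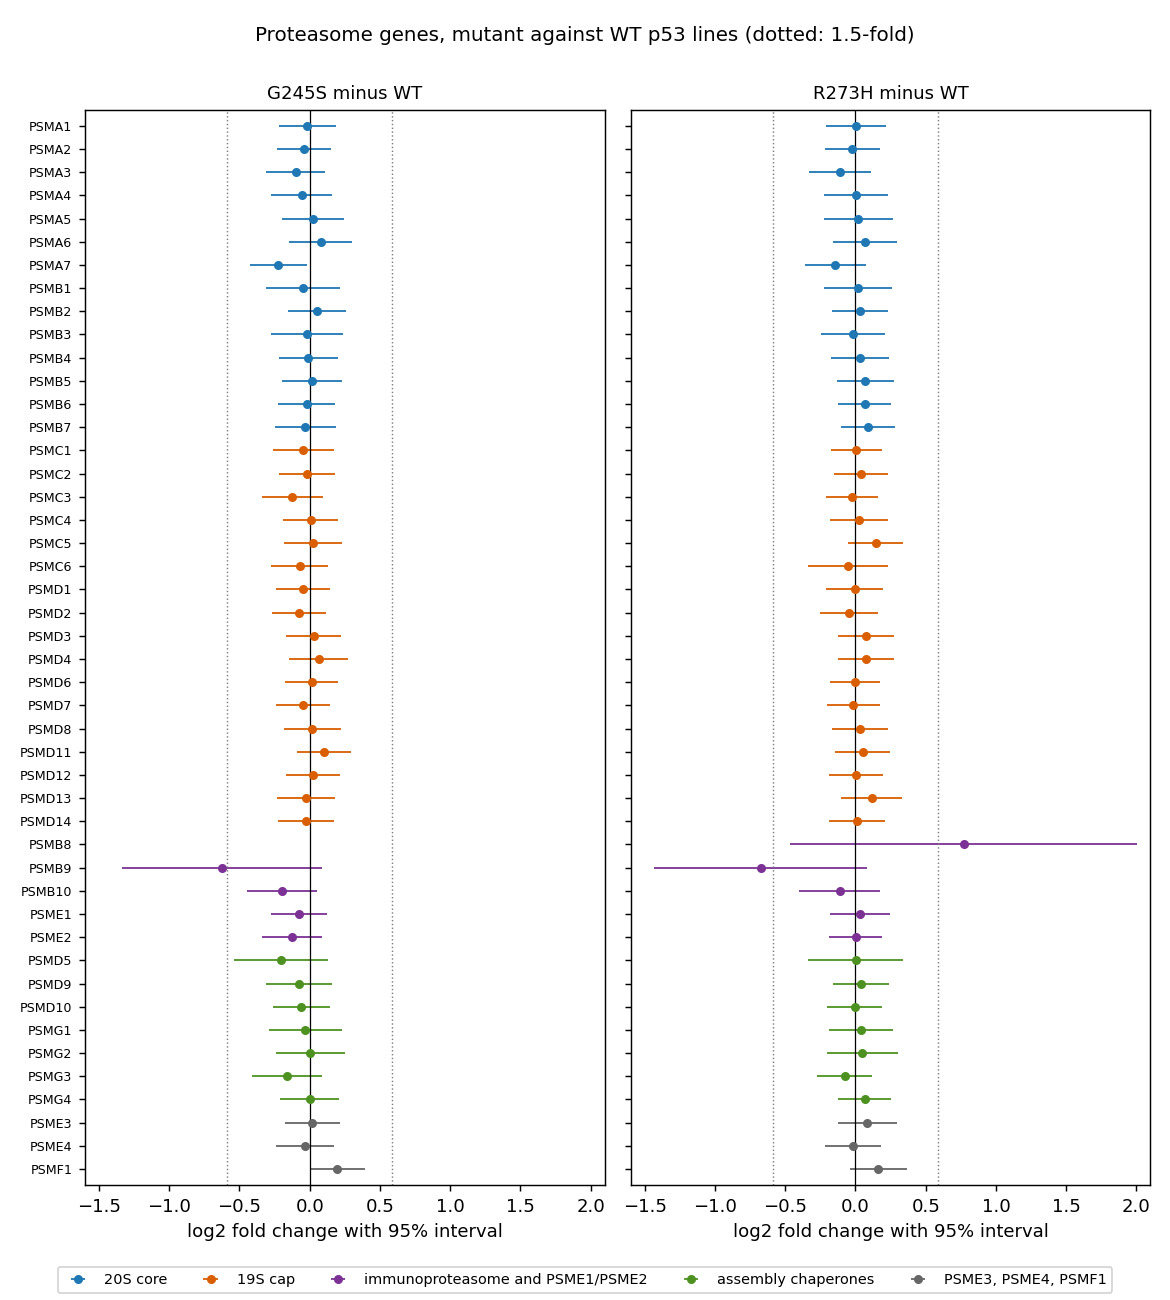
Log2 fold change (x axis) with its 95% interval from edgeR for the tested proteasome genes (y axis), G245S minus WT on the left and R273H minus WT on the right, coloured by group, with dotted lines at 1.5-fold. The 20S and 19S genes lie within the dotted lines in both panels, and PSMB8 and PSMB9, which had few counts, have the widest intervals.

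The median log2 fold change over the members tested was −0.025 in G245S and 0.019 in R273H, beside 0.0034 and 0.0023 over all genes tested. For the 20S genes it was −0.020 and 0.019, for the 19S genes −0.021 and 0.012, and for the assembly chaperones −0.059 and 0.038. The immunoproteasome group had a median of −0.16 in G245S, where 0 of its 4 tested genes were higher, and 0.0031 in R273H, where 3 of 5 were. By sign alone, 15 of 45 members were higher in G245S and 31 of 46 in R273H, where 50.8% and 50.7% of all genes were higher. Members are counted in the same libraries and are not independent, and both comparisons share their WT libraries. Leaving out WT replicate 1 moved the medians of all members to 0.049 in G245S and 0.096 in R273H.

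PSMA7, an alpha subunit of the core ring (ENSG00000101182; GRCh38 chromosome 20, 62136733 to 62143440, minus strand), was the member with the lowest log2 fold change above 5 CPM in both mutants. It was at 456 and 477 CPM in the fitted WT libraries, at 380, 422 and 392 CPM in G245S and at 399, 473 and 396 CPM in R273H. All G245S libraries lay below both WT libraries, while 1 R273H library lay between them. G245S differed from WT by a log2 fold change of −0.22 (standard error 0.0945, unadjusted p = 0.0337, adjusted p = 0.723 from edgeR), and R273H by −0.14 (standard error 0.102, adjusted p = 0.950 from edgeR). PSMA3, the other alpha subunit at the low end in R273H, overlapped between groups (138 and 163 CPM in WT, 126 to 152 CPM in R273H), with a log2 fold change of −0.11.

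PSMF1, which encodes PI31, a proteasome inhibitor and transport adaptor (ENSG00000125818; GRCh38 chromosome 20, 1113240 to 1189415, plus strand), was at the other end. It was at 130 and 121 CPM in WT, 135, 141 and 153 CPM in G245S and 140, 128 and 152 CPM in R273H. The G245S libraries were all above WT, and 1 R273H library lay within the WT range. Its log2 fold change from WT came to 0.20 for G245S (standard error 0.0919, unadjusted p = 0.0496, adjusted p = 0.751 from edgeR) and 0.16 for R273H (standard error 0.0950, adjusted p = 0.922 from edgeR). It did not pass the test in either.

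The other members at the ends of the order were within replicate error. In G245S these were PSMD5, a chaperone of the 19S base (log2 fold change −0.20, interval −0.54 to 0.13, at 8.73 to 11.8 CPM over both groups), PSMA6 (0.079, interval −0.14 to 0.30) and the lid subunit PSMD11 (0.10, interval −0.089 to 0.30). The G245S libraries had 337 to 348 CPM of PSMD11 and the WT libraries 319 and 321 CPM, so the groups did not overlap, although the change did not pass the test. In R273H they were the lid subunit PSMD13 (0.12, interval −0.099 to 0.33) and the ATPase PSMC5 (0.14, interval −0.052 to 0.34). PSMC5 was at 164 and 145 CPM in WT and at 176, 164 and 171 CPM in R273H, where the lowest R273H library fell just below the highest WT library.

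Few members had groups that did not overlap. All 3 G245S libraries were above both WT libraries for 2 of 45 members (PSMD11 and PSMF1; 11.3% of all genes) and below them for 3 (PSMA7, PSMC3 and PSMB9; 10.8%). In R273H the counts were 0 above (10.2% of all genes) and 1 below (PSMB9; 10.5%).

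The mutants were also compared with each other, 3 libraries against 3. The median log2 difference, R273H minus G245S, was 0.042 over the members, 0.030 over the 20S genes and 0.032 over the 19S genes, and −0.0048 over all genes tested. By sign, 35 of 45 members were higher in R273H, where 48.3% of all genes were, and 0 members had groups that did not overlap, in either direction (4.68% and 4.33% of all genes). Intervals lay within 1.25-fold for 41 of 45 members (42.9% of all genes) and within 1.5-fold for 44 (73.7%). The highest differences were those of PSMD5 (0.20, interval −0.098 to 0.50), PSMD13 (0.14, interval −0.054 to 0.33) and PSME2 (0.13, interval −0.056 to 0.31). The lowest above 5 CPM were PSMD11 (−0.053), PSMF1 (−0.038) and PSMD12 (−0.021), and PSMB9, below that level, was at −0.051.

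By RNA level, the standard cutting subunits stood above their interferon-induced counterparts, PSMB5 and PSMB6 by far more than PSMB7. PSMB5, the chymotrypsin-like subunit, ranged from 413 to 480 CPM in the 8 libraries, and PSMB8, which interferon puts in its place, from 0.245 to 1.77 CPM. Per kb of canonical transcript, PSMB5 was 598 times as high as PSMB8, PSMB6 was 164 times as high as PSMB9, and PSMB7 was 10.1 times as high as PSMB10. With the gene lengths of the deposited table, which span all exons of a gene, the same ratios were 1249, 388 and 9.29, so the size of the first and second depends on the length used. In the 8 libraries PSMB10 was the only interferon-induced cutting subunit above 5 CPM, and PSMB11, the thymus-specific one, had 1 count over all 9 libraries. PSMA8, the alpha subunit of the testis, also had 1 count, and neither passed the filter on low counts.

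PSMB5, PSMB6 and PSMB7 did not pass the test in any comparison. PSMB5 averaged 437 ± 18.6 CPM in WT (SD, n = 2), 439 ± 34.9 CPM in G245S (SD, n = 3) and 458 ± 26.1 CPM in R273H (SD, n = 3), with overlapping libraries. The log2 fold changes of PSMB5, PSMB6 and PSMB7 were 0.015, −0.022 and −0.031 in G245S and 0.071, 0.067 and 0.090 in R273H, and every interval held 0, the widest upper limit being 0.29.

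**Figure D3:**
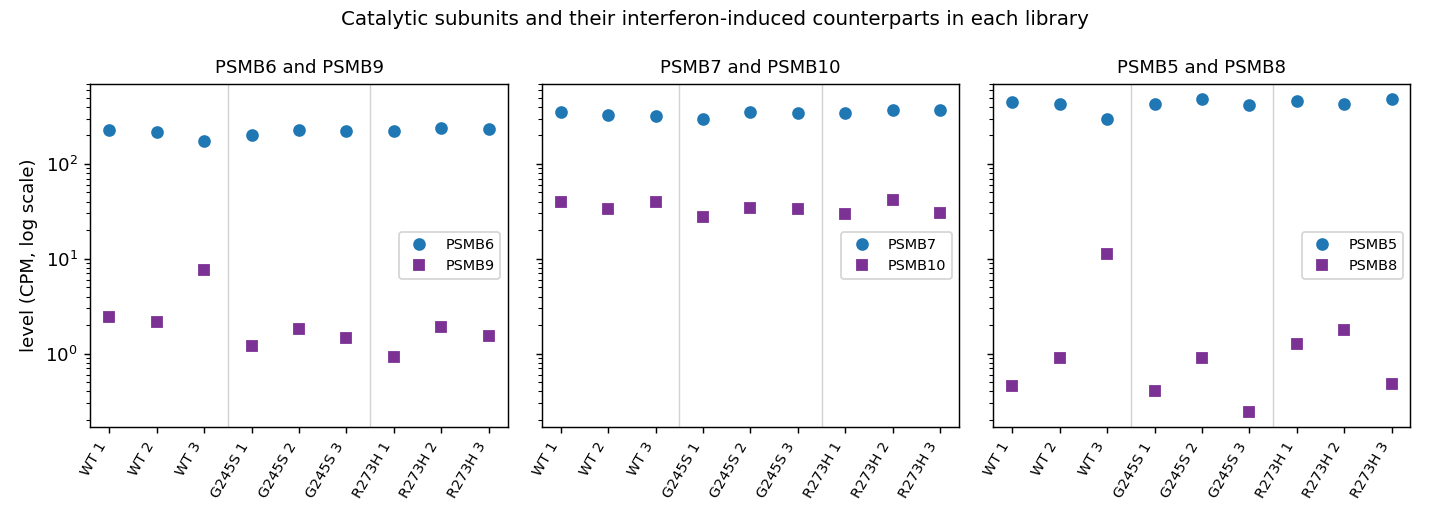
Level in CPM (y axis, log scale) of each standard cutting subunit (blue circles) and its interferon-induced counterpart (purple squares) in the 9 libraries (x axis, groups separated by grey lines). PSMB8 and PSMB9 stand at 11.2 and 7.67 CPM in WT replicate 3 and at most at 1.77 and 2.41 CPM elsewhere, while PSMB5 and PSMB6 are lowest in that library, at 301 and 173 CPM against 413 to 480 CPM and 199 to 240 CPM in the other 8.

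PSMB9 (ENSG00000240065; GRCh38 chromosome 6, 32844136 to 32860734, plus strand) lay lower in both mutants, but on few reads. It had 21 and 17 counts in the fitted WT libraries, 12, 14 and 12 in G245S and 8, 14 and 13 in R273H, which is 2.41 and 2.18 CPM in WT, 1.22, 1.80 and 1.47 CPM in G245S and 0.919, 1.91 and 1.54 CPM in R273H. All 6 mutant libraries were below both WT libraries. The log2 fold changes were −0.62 in G245S (interval −1.33 to 0.091) and −0.67 in R273H (interval −1.43 to 0.086), with adjusted p = 0.784 and 0.888 from edgeR. They became −0.97 and −1.01 with all 3 WT libraries (adjusted p = 0.842 and 0.904 from edgeR).

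PSMB8 (ENSG00000204264; GRCh38 chromosome 6, 32840717 to 32844679, minus strand) passed the filter only for R273H against WT. Counts were 4 and 7 in WT, 4, 7 and 2 in G245S, and 11, 13 and 4 in R273H. The log2 fold change of R273H was 0.77 with an interval from −0.46 to 2.01, and with all 3 WT libraries it turned to −0.60. A difference of a few reads was not resolvable at this depth. PSMB10 (ENSG00000205220; GRCh38 chromosome 16, 67934506 to 67936864, minus strand) was at 39.2 and 33.5 CPM in WT, 27.4 to 34.4 CPM in G245S and 29.6 to 41.4 CPM in R273H, with overlapping groups and log2 fold changes of −0.20 and −0.11. PSME1 and PSME2, the cap that interferon raises, were at 43.5 to 46.3 CPM and 47.1 to 48.0 CPM in WT. Their log2 fold changes were −0.078 and −0.13 in G245S and 0.033 and 0.0031 in R273H.

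WT replicate 3, the library left out, stood apart at PSMB8 and PSMB9. PSMB8 had 16 counts there, 11.2 CPM (exact Poisson 95% interval 6.38 to 18.1 CPM), which is 13.9 times the mean of the other 8 libraries. PSMB9 had 11 counts, 7.67 CPM (interval 3.83 to 13.7 CPM), 4.57 times that mean. PSMA7 was also higher, at 561 CPM (interval 523 to 601 CPM) against 380 to 477 CPM. These were the 3 of 48 members whose interval lay above all 8 other libraries, 6.25% beside 4.56% of all genes tested. Intervals lay below all 8 for 11 members, 22.9% beside 4.29% of all genes, among them PSMB5 (301 CPM against 413 to 480 CPM), PSMB2, PSMD3 and PSMA1. Whether an interval clears the other libraries depends on the count, and the share among genes of like expression was not computed. By value alone, 47.8% of the 46 expressed members lay below all 8 and 19.6% above. Of all genes tested, 31.2% lay below and 28.5% above. Over the expressed members of each group, the median log2 distance of WT replicate 3 from the mean of the others was 0.50 for the immunoproteasome group, −0.071 for the 20S genes and −0.21 for the 19S genes.

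Some genes of class I antigen presentation were also higher in this library. Of 15 listed, 4 (26.7%, beside 4.56% of all genes tested) had an interval above all other libraries and 0 (beside 4.29%) below (exact Poisson intervals, no test): TAPBP at 25.1 CPM against 6.60 to 9.76 CPM, B2M at 340 CPM against 205 to 236 CPM, HLA-B at 125 CPM against 69.1 to 88.0 CPM, and ERAP2, with 5 counts. The peptide transporter gene TAP2 (13.9 CPM against 15.4 to 22.0 CPM) was at 0.736 times the mean of the other 8 libraries, PDIA3 at 0.909, CALR at 0.976 and HLA-C at 1.01 times that mean. These 8 are named because of their values. Of the 15 listed, 13 passed the filter on low counts, ERAP2 not among them. The share of all genes covers only genes that passed it. Epithelial markers were higher there as well: KRT19 was at 33.5 CPM against 0.257 to 1.36 CPM, KRT8 at 54.4 CPM against 9.62 to 12.1 CPM, KRT18 at 160 CPM against 58.6 to 68.6 CPM and EPCAM at 13.9 CPM against at most 3.40 CPM. FN1 was at 111 CPM against at most 22.3 CPM and LYZ, a myeloid gene, at 6.97 CPM (10 counts) against at most 0.257 CPM, while CDH2 (69.7 CPM) and VIM (575 CPM) were near the other libraries and CD3E, CD14 and HBB were at 0. The part of these markers in the PSMB8 and PSMB9 values was not tested. A different number of cells of a type and a different amount of RNA per cell cannot be told apart in bulk RNA.

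**Figure D4:**
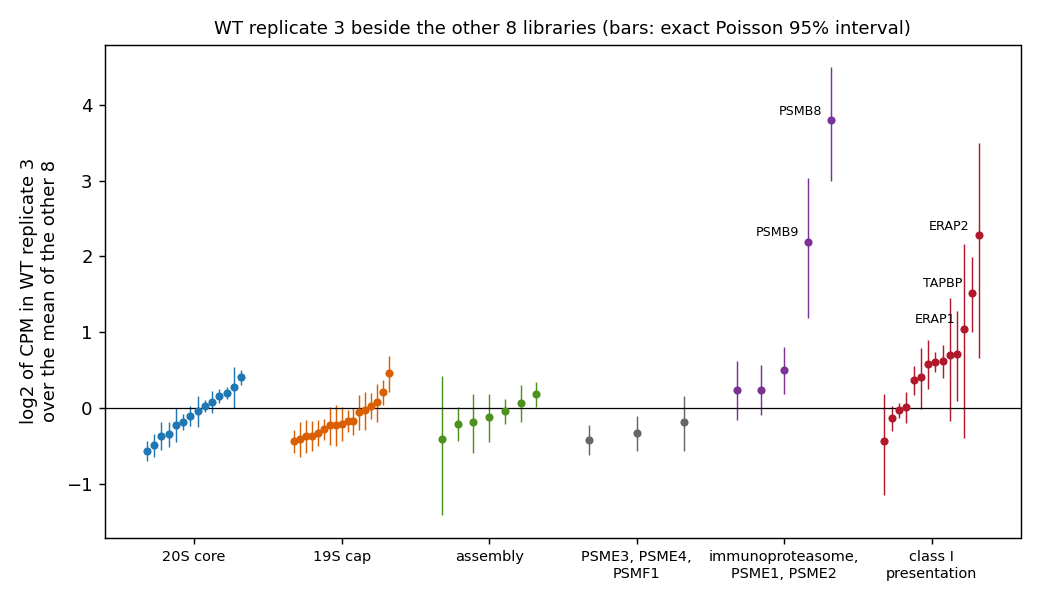
Log2 of the CPM in WT replicate 3 over the mean of the other 8 libraries (y axis) for each expressed gene, sorted within 6 groups (x axis), with exact Poisson 95% intervals that cover counting error only. PSMB8 and PSMB9 lie 13.9 and 4.57 times above the mean, while most 19S genes lie below it.

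No gene that controls or serves the proteasome passed the test either. Of 49 such genes fixed as lists (subunits and assembly factors with other names, bound ubiquitin enzymes, ubiquitin shuttles, ubiquitin genes, proteasome transcription factors and class I presentation), 45 were tested and edgeR called 0 in each comparison, with 4, 1 and 0 at an unadjusted p under 0.05 (DESeq2 also called 0, with 0, 1 and 0 before adjustment). Of all genes tested, edgeR called 0.126%, 0.137% and 0%. Before adjustment the shares were 8.89%, 2.22% and 0% of the listed genes, beside 6.66%, 6.11% and 4.75% of all genes. NFE2L1 averaged 37.8 ± 4.32 CPM in WT (SD, n = 2), 37.3 ± 0.688 CPM in G245S (SD, n = 3) and 41.1 ± 2.69 CPM in R273H (SD, n = 3). NFE2L2 averaged 48.9 ± 3.61 CPM in WT (SD, n = 2), with log2 fold changes of −0.074 in G245S and 0.036 in R273H. Both act mainly through the amount of their proteins, and NFE2L1 also through cleavage of its protein, which RNA counts do not show. POMP, the chaperone that matures the core, had log2 fold changes of 0.066 and 0.11 in G245S and R273H, the ubiquitin receptor ADRM1 −0.023 and −0.054, and the small cap subunit SEM1 0.12 and 0.034. The one gene with an unadjusted p under 0.05 in both mutants was MIDN, which carries nuclear proteins to the proteasome without ubiquitin (0.23 and 0.26, unadjusted p = 0.0202 and 0.0169, adjusted p = 0.674 and 0.715 from edgeR with Benjamini-Hochberg adjustment). It was named after its value was seen.

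The start sites of these genes were searched for 1 known control element. The antioxidant response element, to which NFE2L1 and NFE2L2 bind with a small MAF partner, was searched on both strands as TGACNNNGC in the 300 bases from 250 before to 50 after each start (RefSeq, GRCh38.p14). Of the 42 members with an entry, 15 held it (35.7%), beside 13.4% of all 35116 promoters in the table. A member counted once if any of its entries held a match, while the share of all promoters was taken per entry. These shares are therefore not in like units, and their difference was not tested. PSMA7, PSMB1, PSMB6, PSMB7, PSMD4 and PSMG3 had no entry. The windows of the core genes PSMA4 and PSMB3, of the cap genes PSMC5, PSMD3 and PSMD12, and of PSMB9, PSME1 and PSME2 follow, chosen to show each group of the complex, with the match in capitals and 10 bases on either side.
PSMA4, chr15:78540650-78540678, plus strand: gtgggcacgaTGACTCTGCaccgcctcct
PSMB3, chr17:38752627-38752655, plus strand: gcctccgtttTGACTTTGCaaccaaacta
PSMC5, chr17:63827654-63827682, minus strand: agggcggcgcTGACACAGCagatccggtc
PSMD3, chr17:39980760-39980788, plus strand: tcccctttgtTGACTCGGCcatcggcctg
PSMD12, chr17:67366724-67366752, minus strand: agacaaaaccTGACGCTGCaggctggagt
PSMB9, chr6:32854034-32854062, minus strand: ccgagacaagTGACGAGGCagccccgccc
PSME1, chr14:24136098-24136126, plus strand: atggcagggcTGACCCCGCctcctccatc
PSME2, chr14:24146767-24146795, minus strand: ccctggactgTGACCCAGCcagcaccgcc

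A match of these letters is a description and not a measured site. The 15 members with a match had median log2 fold changes of −0.031 in G245S and 0.0054 in R273H, and the members with an entry and no match −0.018 (24 genes) and 0.020 (25 genes). The difference between these medians was not tested.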

How the data were processed

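RNA was sequenced from 9 libraries, 3 biological replicates per line. Per the paper and the labels, the authors filtered reads with fastp 0.24.0, aligned them to GRCh38 with STAR 2.7.11, sorted them with SAMtools 1.22.1, collapsed duplicates by molecular identifier and counted strand-specifically with featureCounts (Subread 2.1.1), sharing multi-mapping reads as fractions. What the authors deposited are expected counts, not normalized, which were rounded here. Another 9 columns of CPM per sample were not used.

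The study leaves out 1 WT replicate, for the quality of the sample and its low read number, without naming it. Here WT replicate 3 was left out by depth, its 1486315 counts being fewer than 4096044 (0.5 of the median total of the other 8). Genes were filtered with filterByExpr, normalized with TMM and tested with edgeR 4.0.16 (quasi-likelihood) under R 4.3.3, and p-values were Benjamini-Hochberg adjusted over all genes of a comparison. Intervals of fold changes are the estimate and its standard error with the moderated degrees of freedom. Exact Poisson intervals, given for WT replicate 3, and floors of 3 counts cover counting error only. DESeq2 1.42.0 was an alternative. Plots were drawn with matplotlib 3.10.9 in Python 3.11.15. The pipeline was tested on simulated data.

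Named genes were the 3 highest and 3 lowest members of each comparison above 5 CPM, the cutting subunits and their counterparts, PSME1, PSME2, members not tested, the member with the largest spread, and regulators. Others are named for their values: PSMC3 by the overlap of its groups, and the highest and lowest levels per length. The members and lists were chosen with earlier results of these data known. All 50 gene identifiers were found in GENCODE v44 on the same chromosome. Alternatives covered WT libraries, replicates, scaling, filters, a common fit and a replicate term. One planned check is not reported here.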

Additional observations from a re-analysis of the deposited data

Results flagged for a closer look

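Values of 3 members in WT replicate 3, the library no fit used, lay above all 8 other libraries by more than counting error. PSMB8 was at 11.2 CPM and PSMB9 at 7.67 CPM, on 16 and 11 counts, and PSMA7 was at 561 CPM. In all genes tested, 4.56% lay above the other libraries in the same way, so 3 of 48 members is near that share. In the other direction, 11 of 48 members (22.9%, beside 4.29% of all genes tested) lay below all 8, PSMB5 at 301 CPM against 413 to 480 CPM among them. All genes tested span a wider range of counts, on which the width of an interval depends. By value alone, 47.8% of the 46 expressed members lay below all 8, beside 31.2% of all genes, and 19.6% above, beside 28.5%. The shares of the groups differed, and the difference was not tested. Above all 8 lay 2 of 6 genes of the immunoproteasome group (33.3%), 1 of 15 20S genes (6.67%) and 0 of 17 19S genes. Below all 8 lay 0 of 6, 5 of 15 (33.3%) and 5 of 17 (29.4%), in the same order. The groups also differ in counts. PSMA8 and PSMB11, at 0 counts in this library, are among the 15 and the 6. For the expressed genes of these groups (5, 14 and 17), 80%, 14.3% and 11.8% lay above all 8 by value alone. Below all 8 by value lay 0%, 42.9% and 64.7%. A single library gives no replicate check of these values.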

How the results depend on the processing

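With edgeR or DESeq2, 0 members were called under any of the 16, 16 and 14 settings of G245S against WT, R273H against WT and R273H against G245S, with 0 to 4, 0 to 5 and 0 to 4 members at an unadjusted p under 0.05 and a smallest adjusted p of 0.409, 0.548 and 0.455. Leaving out a WT library leaves 1, which edgeR assumes to vary like the mutants. Since 2 WT libraries set the baseline, signs of small fold changes turned with the choice of library. Libraries were not paired by replicate number in the main fits. Correlations of deviations ran from −0.18 to 0.27 for libraries of the same number and from −0.26 to 0.23 for others. With a replicate block, edgeR called 76, 47 and 59 of all genes in place of 20, 22 and 0, and 0 members (0, 1 and 2 at an unadjusted p under 0.05). Whether a correlation reflects shared handling was not tested.

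With all 3 WT libraries, log2 fold changes turned sign for PSMB6 in G245S (0.063) and for PSMB8, PSME1 and PSME2 in R273H (−0.60, −0.065 and −0.036). With WT replicates 1 and 3, they were 0.0026 for PSMD5, −0.10 for PSMA6 and 0.094 for PSMB6 in G245S, and −1.33 for PSMB8, −0.17 for PSME1 and −0.074 for PSME2 in R273H, and the immunoproteasome median of R273H was −0.23. With WT replicates 2 and 3, they were 0.14 for PSMB6 and 0.033 for PSMB7 in G245S, and 0.015 for PSMA3, −1.44 for PSMB8, −0.10 for PSME1 and −0.051 for PSME2 in R273H. The medians there were 0.049 for all members and 0.096 for 19S genes in G245S, and 0.13 for 19S genes in R273H. Each of these settings brings in WT replicate 3. PSME2 in R273H also turned without a filter (−0.0017) and with the replicate block (−0.022), and PSMD12 between the mutants with library size scaling (0.0041).

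Leaving out 1 library at a time gave medians in G245S from −0.086 to 0.049 for all members, −0.104 to 0.062 for 20S genes, −0.035 to 0.062 for 19S genes and −0.23 to −0.092 for the immunoproteasome group. In R273H they ran from −0.024 to 0.096 for all members, −0.080 to 0.100 for 20S genes, −0.012 to 0.065 for 19S genes and −0.16 to 0.018 for the immunoproteasome group, and between the mutants from 0.0078 to 0.079, 0.00036 to 0.084, −0.0095 to 0.053 and −0.026 to 0.17, in the same order. Single genes ranged in G245S from −0.014 to 0.18 for PSMA6, −0.048 to 0.063 for PSMB5, −0.067 to 0.031 for PSMB6 and −0.086 to 0.035 for PSMB7. In R273H the ranges were −0.27 to 0.0088 for PSMB10, −0.23 to 0.020 for PSMA3, −0.048 to 0.087 for PSME1 and −0.022 to 0.024 for PSME2. Between the mutants they were −0.078 to 0.17 for PSMB10, −0.077 to 0.0096 for PSMD12, −0.28 to 0.20 for PSMB9 and −0.10 to 0.020 for PSMF1. Over protein-coding genes outside the mitochondrial chromosome, the mean share of counts on the 38 genes was 0.946% in WT (n = 3), 0.962% in G245S and 0.992% in R273H, in place of 0.835%, 0.844% and 0.882%. These WT means include WT replicate 3, the lowest WT library, at 0.915% in place of 0.786%. The fitted WT libraries were at 0.975% and 0.947%, in place of 0.878% and 0.839%, so the order of WT and G245S depends on that library. The other settings turned the sign of no gene named by the rule.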
